A study of Mus musculus with 36 samples.

Results

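MHC class II antigen presentation was followed through 7 of the 78239 genes in the count files. The 7 were chosen by name, as the genes whose products build, load and control class II molecules, and matched to their Ensembl identifiers. Cd74, H2-Aa, H2-Ab1 and H2-Eb1 encode the parts of the complex, H2-DMa and H2-DMb1 the peptide editor, and Ciita the regulator of them all. All 7 were found, and all 7 passed the filter on low counts in each tissue.

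RNA was sequenced from kidney, heart and liver of wild-type male C57BL/6NCrl mice, an inbred strain, killed at an age of 8, 10 or 12 weeks. Each tissue and age formed a group of 4 libraries, which gave 9 groups and 36 libraries. All mice came from 1 supplier, ate standard chow and were anesthetized with ketamine and xylazine before collection. The tissues were homogenized whole and polyA RNA was read in pairs, so that a value is a mean over all cells of the piece of tissue. In such bulk samples, fewer cells of a type and less RNA per cell cannot be told apart. The labels number the libraries of a group from 1 to 4, and the library names carry the same running numbers in all 3 tissues, but they do not say which libraries of different tissues came from 1 mouse.

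MHC class II molecules carry peptides from proteins that a cell has taken up and show them to CD4+ T cells. The α and β chains meet in the endoplasmic reticulum with Cd74, the invariant chain, which fills the groove and guides the complex to endosomes. There proteases cut Cd74 down to a small remnant, and H2-DM, a dimer of H2-DMa and H2-DMb1, exchanges the remnant for a peptide. H2-Aa and H2-Ab1 form the I-A molecule, and H2-Eb1 is the β chain of I-E. C57BL/6 mice carry a defective gene for the I-E α chain, H2-Ea, and show I-A alone. B cells, dendritic cells and many macrophages make class II molecules at all times, while other cells do so after exposure to interferon-γ. Ciita does not bind DNA itself but joins the factors RFX, CREB and NF-Y on the promoters of class II genes, and in most tissues its amount sets whether these genes are read.

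The promoter elements to which these factors bind stand in the reference genome (GRCm39) upstream of the chain genes. A window from 250 bases before to 100 bases after each annotated start was searched for an X box written as GNNAC, then 2 or 3 bases, then TGA, followed after 18 to 22 bases by a Y box written as TGATTGG. These motifs do not overlap each other in the search. Below are the elements of the I-A and I-E chain genes, with the searched letters in capitals, each on the strand of its gene. They are shown because Ciita acts through them.
H2-Aa, chr17:34506835-34506884, minus strand: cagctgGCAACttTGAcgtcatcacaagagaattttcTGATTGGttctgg
H2-Ab1, chr17:34482118-34482166, plus strand: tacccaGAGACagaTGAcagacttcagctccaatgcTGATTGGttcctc
H2-Eb1, chr17:34524744-34524792, plus strand: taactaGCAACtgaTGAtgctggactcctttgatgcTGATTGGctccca
The Y box ended 43, 22 and 26 bases before the start of the main transcript of H2-Aa, H2-Ab1 and H2-Eb1, and no annotated exon of these genes covers the elements. The spacer between TGA and the Y box measured 21, 19 and 19 bases. H2-DMa held the same arrangement with a spacer of 20 bases, 34 bases before its start, and H2-DMb1 with a spacer of 20 bases, where it lies within its first annotated exon. On either strand, 9 of 21723 protein-coding genes (0.0414%) held the pair in this window, and 5 of these 9 were H2-Aa, H2-Ab1, H2-Eb1, H2-DMa and H2-DMb1. A Y box alone occurred in 9.56% of the windows. The letters were not found in the windows of Cd74 and Ciita. A match is a description of letters and not a measured binding site.

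Ciita has several promoters, of which the one that answers to interferon-γ carries a site for IRF factors. Written as GAAANNGAAA and searched on the strand of the gene alone, its letters were found around 4 of the 9 annotated starts of Ciita, on chromosome 16 between positions 10307516 and 10307647. The site is shown, with the searched letters in capitals, because Irf1 and the interferon-γ genes are reported below.
Ciita IRF site, chr16:10307568-10307589, plus strand: tagacaGAAAGTGAAAggggga
Its letters ended 61 bases before the start of the transcript Ciita-203, and they lie in the first exon of the transcript Ciita-209. Of all protein-coding windows, 4.27% held these letters on either strand, a wider search than that of the Ciita starts. The counts are per gene, so which promoter was used cannot be read from them.

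Libraries held between 21031599 and 33637390 pairs counted on genes, with a median of 26957015. Values are given in CPM, the counts of a gene scaled to a common library size, with edgeR's TMM factors over the 36 libraries. These factors ranged from 1.30 to 1.42 in kidney, 0.90 to 0.98 in heart and 0.72 to 0.82 in liver, so values compared between tissues rest on the scaling more than values compared between ages. The labelled tissues carried their own markers. The myosin heavy chain gene Myh6 averaged 24767 CPM in heart, the phosphate transporter gene Slc34a1 3986 CPM in kidney and albumin 92151 CPM in liver. In hearts, 5 hepatocyte genes summed to between 1.40 and 24.2 CPM at 10 weeks and 0.723 and 3.94 CPM at 12 weeks, against 0.124 to 0.577 CPM at 8 weeks. This was at most 0.0205% of their mean sum in liver, and its source was not tested.

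The class II genes fell into an abundant and a scarce class. Cd74 gave between 403 and 5368 pairs in a library, H2-Aa, H2-Ab1 and H2-Eb1 between 150 and 2404, and H2-DMa, H2-DMb1 and Ciita between 10 and 246. The last 3 therefore have the larger counting error. Per kilobase of annotated exon, the mean level in kidney was 33.0 CPM for Cd74, 14.8 for H2-Ab1, 12.8 for H2-Eb1, 8.85 for H2-Aa, 2.74 for H2-DMb1, 0.848 for H2-DMa and 0.282 for Ciita. The exon length joins all annotated transcripts, which lowers the value of genes such as Ciita with many of them. H2-Ea had 0 pairs in 36 of 36 libraries, and a count of 0 allows up to 3 pairs, or 0.067 to 0.183 CPM in a library.

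Neighbouring genes limit several of these values. The libraries do not keep strand, and pairs on bases shared by 2 genes were left out of the counts by the authors' counter. The share of a gene's pairs left after this step was at least 99.99% for Cd74, and 78.6% to 81.3% for H2-Eb1, whose exons touch those of Gm20513 and H2-Aa. It was 76.1% to 90.4% for Ciita (overlapping Dexi), 56.4% to 60.9% for H2-DMb1 (overlapping Gm64535) and 33.5% to 43.1% for H2-DMa, which shares 11.8% of its exon bases with Brd2 on the other strand. Brd2 itself averaged 94.2 CPM in heart, 126.9 CPM in kidney and 129.9 CPM in liver, so the lost pairs of H2-DMa may belong to either gene and cannot be told apart. H2-DMb1 also resembles its neighbour H2-DMb2. Of the 1305 stretches of 100 bases in the main transcript of H2-DMb1, 13.7% occurred in that of H2-DMb2, while none of 250 bases did, and pairs inside such stretches are uncertain between both.

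In kidney, all 7 genes were measured higher at 12 than at 8 weeks, and none of the differences passed the adjusted test. Cd74 stood at 73.4, 70.7, 77.6 and 64.1 CPM in the 4 kidneys at 8 weeks, at 78.0, 76.0, 75.9 and 79.3 CPM at 10 weeks, and at 82.1, 135.3, 97.9 and 86.8 CPM at 12 weeks. Every kidney at 12 weeks was above every younger kidney, with replicate 2 at 12 weeks far above the others. H2-Eb1 gave 27.5, 29.7, 29.8 and 25.8 CPM at 8 weeks, 32.4, 31.6, 28.8 and 29.2 CPM at 10 weeks, and 32.7, 55.1, 40.3 and 34.6 CPM at 12 weeks. Here too the oldest group lay above both others, by a narrow margin over the highest kidney at 10 weeks. The I-A chains did not separate as fully. H2-Aa ranged from 30.1 to 37.0 CPM at 8 weeks and from 36.6 to 60.6 CPM at 12 weeks, and H2-Ab1 from 29.2 to 36.8 CPM and from 33.6 to 59.7 CPM, so that both overlapped between these ages.

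**Figure D1:**
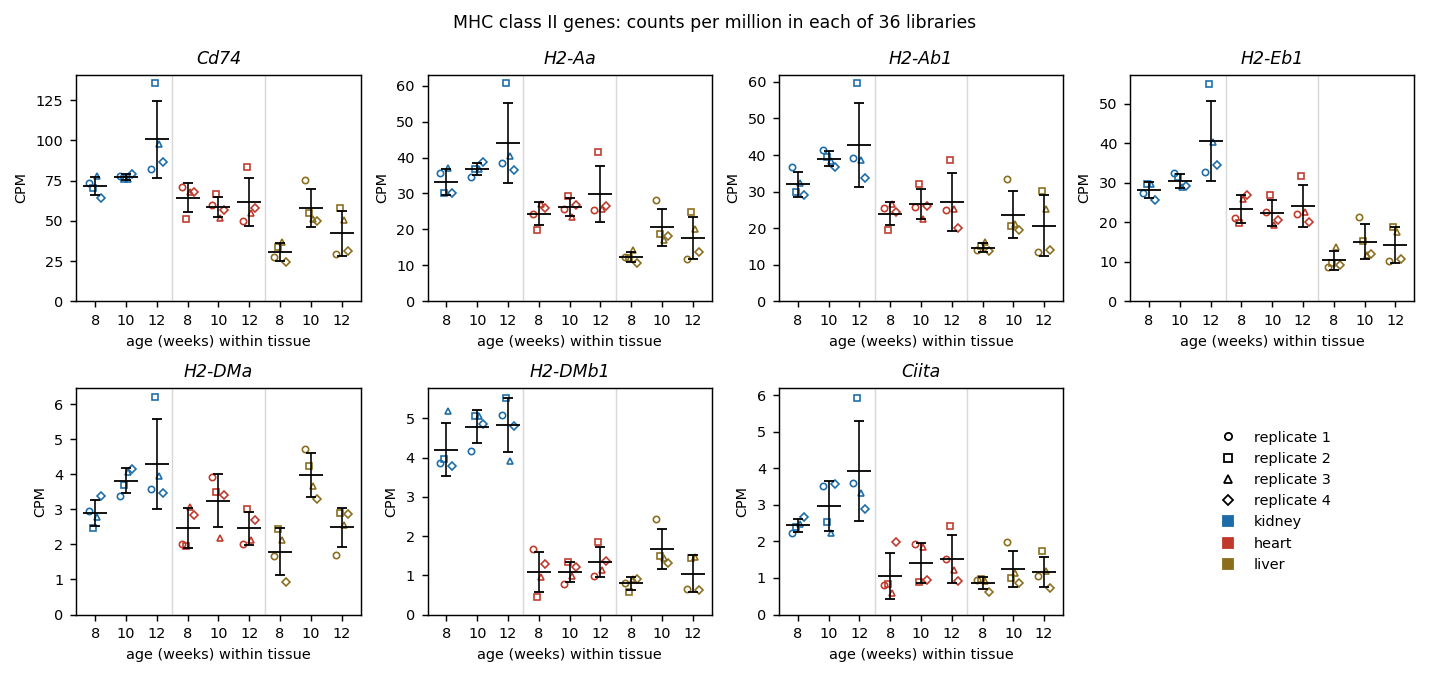
CPM (vertical axis, starting at 0, 1 panel per gene) of the 7 class II genes in every library, by age in weeks within kidney, heart and liver. Symbols are replicates 1 to 4, and horizontal marks with bars are the mean ± SD of 4 libraries. Replicate 2 at 12 weeks is the highest kidney and the highest heart of its age for all 7 genes, with 135.3 CPM of Cd74 in kidney.

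The regulator and the editor gave fewer pairs. Ciita stood at 2.23, 2.39, 2.48 and 2.67 CPM at 8 weeks, 3.52, 2.53, 2.22 and 3.57 CPM at 10 weeks, and 3.60, 5.92, 3.33 and 2.87 CPM at 12 weeks in kidney. The oldest and youngest kidneys did not overlap, and those of 10 weeks spanned the gap between them. H2-DMa measured 2.94, 2.48, 2.79 and 3.39 CPM at 8 weeks and 3.58, 6.20, 3.96 and 3.45 CPM at 12 weeks, again without overlap. H2-DMb1 measured 3.85, 3.97, 5.19 and 3.77 CPM at 8 weeks and 5.08, 5.52, 3.90 and 4.80 CPM at 12 weeks, and the groups overlapped.

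Fitted log2 differences between 12 and 8 weeks in kidney (± SE) were 0.69 ± 0.22 for Ciita, 0.57 ± 0.18 for H2-DMa, 0.53 ± 0.13 for H2-Eb1, 0.50 ± 0.12 for Cd74, 0.42 ± 0.14 for H2-Ab1, 0.41 ± 0.13 for H2-Aa and 0.20 ± 0.13 for H2-DMb1. The smallest adjusted p in edgeR's quasi-likelihood test was 0.190, for H2-Eb1, and 0 of 7 passed, where 0.0567% of the 17649 genes tested passed. At an unadjusted p under 0.05, 6 of 7 were higher, all but H2-DMb1, against 6.82% of all genes. The kidneys of 12 and 8 weeks did not overlap for 4 of 7, against 3.42% of all genes in this direction. The median difference was 0.50 for the 7 and 0.0025 for all genes. DESeq2 on the same counts passed 2 of 7, Cd74 and H2-Eb1, and 0.776% of all genes, and edgeR without the filter on low counts passed 6 of 7, all but H2-DMb1, and 1.22%.

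Much of this size lay in replicate 2 at 12 weeks. Without it, the median difference of the 7 was 0.32 in place of 0.50, with 0.32 ± 0.07 for Cd74, 0.35 ± 0.08 for H2-Eb1, 0.21 ± 0.08 for H2-Aa and 0.42 ± 0.18 for Ciita. The same 6 genes kept an unadjusted p under 0.05, 0 passed the adjusted test, and the smallest adjusted p of edgeR was 0.286. In that kidney, 6 general leukocyte genes summed to 34.0 CPM against 23.9 to 34.0 CPM over its group, 10 B cell genes to 2.77 CPM (range 1.00 to 2.77), 4 plasma cell genes to 15.7 CPM (range 4.05 to 15.7) and 12 genes induced by interferon-γ to 83.4 CPM (range 49.2 to 83.4). It was the highest of its group in these 4 lists. The same held for genes of macrophages (182.5 CPM, range 154.0 to 182.5), T cells (6.76, range 4.32 to 6.76), neutrophils (1.13, range 0.659 to 1.13) and class I presentation (556.2, range 420.6 to 556.2). It was not the highest for lymph node stroma or thymocyte genes. Nor was it for 10 dendritic cell genes, with 18.8 CPM in a range of 17.2 to 19.8 CPM against 17.4 to 18.5 CPM at 8 weeks. At 8 weeks the sums of the leukocyte, B cell, plasma cell and interferon-γ lists were 21.1 to 25.8, 1.22 to 1.55, 1.92 to 3.64 and 41.3 to 46.7 CPM. The part of these cells or genes in the class II values was not tested. None of the 10 B cell genes was at 0 over all kidneys, but 8 of them averaged below 0.1 CPM, and the most abundant was Cd37 with 0.728 CPM. Also below 0.1 CPM were 5 of 6 thymocyte genes (most abundant Cd1d1, 1.49 CPM) and 4 of 5 neutrophil genes (Csf3r, 0.596 CPM). So were 3 of 6 lymph node stroma genes (most abundant Ccl21a, 3.33 CPM).

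The step from 8 to 10 weeks in kidney was small for the complex, with log2 differences of 0.14 ± 0.12 for Cd74 and 0.31 ± 0.14 for H2-Ab1. The median of the 7 was 0.21, 0 of 7 passed edgeR's adjusted test (0.929% of all genes did), and H2-DMa and H2-Ab1 had an unadjusted p under 0.05, where 8.96% of all genes did in this direction. From 10 to 12 weeks the median was 0.25, 0 of 7 passed (0.482% of all genes), and Cd74 (0.36 ± 0.12) and H2-Eb1 (0.40 ± 0.13) had an unadjusted p under 0.05, against 8.66% of all genes. Without replicate 2 at 12 weeks, this last median was 0.05. Without the filter on low counts, edgeR passed H2-Ab1 in the first step and Cd74 and H2-Eb1 in the second, and 2.39% and 2.23% of all genes.

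**Figure D2:**
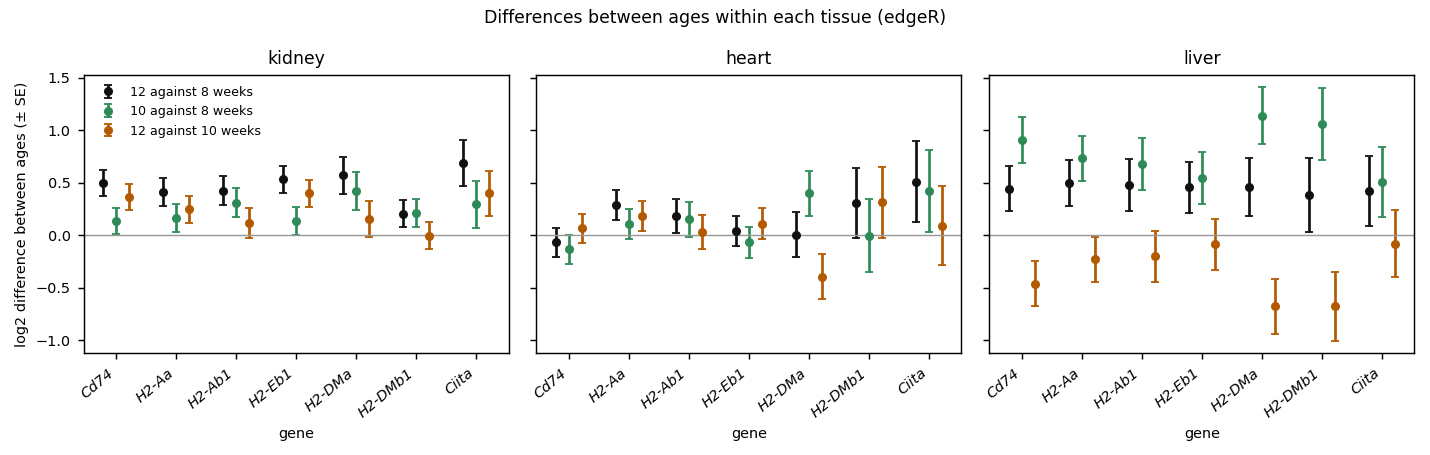
Log2 difference between ages (vertical axis, points, with bars of 1 SE) for each class II gene in kidney, heart and liver, from edgeR's fit. In kidney the difference of 12 against 8 weeks lies above 0 for all 7 genes, in liver that of 10 against 8 weeks is the highest, up to 1.14 for H2-DMa, and in heart the differences lie on both sides of 0.

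In heart, no class II gene passed the test of age. Cd74 gave 71.2, 50.8, 67.7 and 67.8 CPM at 8 weeks, 59.9, 66.5, 51.8 and 56.5 CPM at 10 weeks, and 49.8, 83.1, 55.0 and 58.1 CPM at 12 weeks, with wide overlap. H2-Aa averaged 24.3 ± 3.22, 26.2 ± 2.47 and 29.8 ± 7.78 CPM (SD, n = 4), and replicate 2 at 12 weeks stood at 41.4 CPM against 25.4 to 26.6 CPM in the other hearts of that age. Ciita averaged 1.05 ± 0.63, 1.41 ± 0.56 and 1.51 ± 0.65 CPM. Between 12 and 8 weeks the log2 differences ran from -0.07 for Cd74 to 0.51 for Ciita with a median of 0.18, and without replicate 2 at 12 weeks the median was -0.04. In edgeR's test 0 of 7 passed and 0 of 7 had an unadjusted p under 0.05, although 4.56% of the 15137 genes passed and 23.4% had such a p in either direction. The median was 0.11 from 8 to 10 weeks, where 0 of 7 passed (1.06% of all genes did) and 0 of 7 had an unadjusted p under 0.05 (15.8% did). It was 0.09 from 10 to 12 weeks (-0.12 without replicate 2 at 12 weeks), where 0 of 7 passed (0.0396% did) and 0 of 7 had an unadjusted p under 0.05 (11.7% did). DESeq2 also passed 0 of 7 in each.

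In liver, the highest values came at 10 weeks. Cd74 stood at 27.8, 34.0, 36.6 and 24.6 CPM at 8 weeks, at 75.2, 55.0, 51.2 and 49.9 CPM at 10 weeks, and at 29.2, 58.1, 50.2 and 31.1 CPM at 12 weeks. All livers of 10 weeks were above all of 8 weeks, and those of 12 weeks split into a pair at the level of 8 weeks and a pair at the level of 10 weeks. H2-DMa followed with 1.66, 2.45, 2.13 and 0.917 CPM, then 4.72, 4.24, 3.66 and 3.30 CPM, then 1.69, 2.88, 2.54 and 2.86 CPM. H2-DMb1 gave 0.803, 0.568, 0.914 and 0.917 CPM at 8 weeks and 2.44, 1.49, 1.44 and 1.31 CPM at 10 weeks. H2-Aa averaged 12.3 ± 1.45, 20.6 ± 5.13 and 17.6 ± 5.95 CPM over the 3 ages, H2-Ab1 14.7 ± 1.12, 23.7 ± 6.49 and 20.7 ± 8.36 CPM, and H2-Eb1 10.3 ± 2.37, 15.1 ± 4.49 and 14.3 ± 4.46 CPM. Ciita averaged 0.860 ± 0.167, 1.24 ± 0.50 and 1.17 ± 0.42 CPM, with 10 to 38 pairs in a library, and its groups overlapped.

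Between 10 and 8 weeks in liver, the log2 differences were 1.14 ± 0.27 for H2-DMa, 1.06 ± 0.34 for H2-DMb1, 0.91 ± 0.22 for Cd74, 0.73 ± 0.22 for H2-Aa, 0.68 ± 0.25 for H2-Ab1, 0.54 ± 0.24 for H2-Eb1 and 0.50 ± 0.33 for Ciita. In edgeR's test 0 of 7 passed, with a smallest adjusted p of 0.126 for Cd74, and 0.0204% of the 14672 genes passed. At an unadjusted p under 0.05, 6 of 7 were higher, all but Ciita, against 7.04% of all genes, and 5 of 7 did not overlap, against 4.79%. DESeq2 passed Cd74 and H2-DMa and 2.46% of all genes, and edgeR without the filter passed Cd74, H2-Aa, H2-Ab1 and H2-DMa and 1.02%. Without replicate 1 at 10 weeks, the highest of its group for all 7, the median was 0.54 in place of 0.73, and 4 of 7 kept an unadjusted p under 0.05. That liver also had the lowest share of pairs counted on genes of all 36 libraries (68.6%) and the highest share unmapped (13.03%, against 2.81% to 9.51% in the other 11 livers), whose part in its values was not tested. The common coefficient of variation between libraries was 0.206 in liver, against 0.113 in kidney and 0.118 in heart, so that a difference of a given size reaches a larger p there.

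From 10 to 12 weeks all 7 differences in liver were negative, with a median of -0.23. None passed edgeR's test (0.0545% of all genes did), and H2-DMa and Cd74 had an unadjusted p under 0.05, where 7.77% of all genes were lower at that p. From 8 to 12 weeks all 7 were positive, with a median of 0.45 (0.26 without replicate 2 at 12 weeks), 0 passed (0.239% of all genes did), and H2-Aa alone had an unadjusted p under 0.05 (0.50 ± 0.22), against 7.37% of all genes. H2-Aa no longer had it without that library. The comparisons with 10 weeks share their samples, so the opposite signs of both steps are not 2 separate observations.

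Markers of some immune cells were also higher in livers of 10 weeks, while those of others overlapped between ages. Macrophage genes, 11 in number and led by the Kupffer cell gene Clec4f, summed to 209 to 414 CPM at 8 weeks, 433 to 639 CPM at 10 weeks and 254 to 280 CPM at 12 weeks. The 6 leukocyte genes summed to 23.7 to 38.2, 43.8 to 68.7 and 27.0 to 38.96 CPM, and the 10 B cell genes to 3.85 to 5.77, 6.91 to 8.37 and 3.25 to 6.29 CPM. In all 3 lists the livers of 10 weeks lay above those of both other ages, while between 10 and 12 weeks the class II genes overlapped, except H2-DMa. Other lists did not separate so. Dendritic cell genes summed to 11.4 to 12.8, 12.3 to 15.2 and 9.37 to 14.8 CPM. T cell genes gave 2.20 to 2.96, 3.46 to 4.56 and 2.42 to 4.90 CPM, with overlap between 10 and 12 weeks. Plasma cell and neutrophil genes overlapped between 10 weeks and both other ages. The sum of the 5 hepatocyte genes, led by albumin, was 116260 to 151959 CPM at 8 weeks, 90384 to 108682 CPM at 10 weeks and 115036 to 149590 CPM at 12 weeks. This sum was lower at 10 weeks without overlap, but not each gene was. At 10 against 8 weeks 2 of the 5 were higher and 3 lower, and at 12 against 10 weeks 4 were higher and 1 lower. The 5 endothelial genes gave 87.0 to 144.4, 144.2 to 157.2 and 57.1 to 90.3 CPM. The part of these cells in the class II values was not tested.

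**Figure D3:**
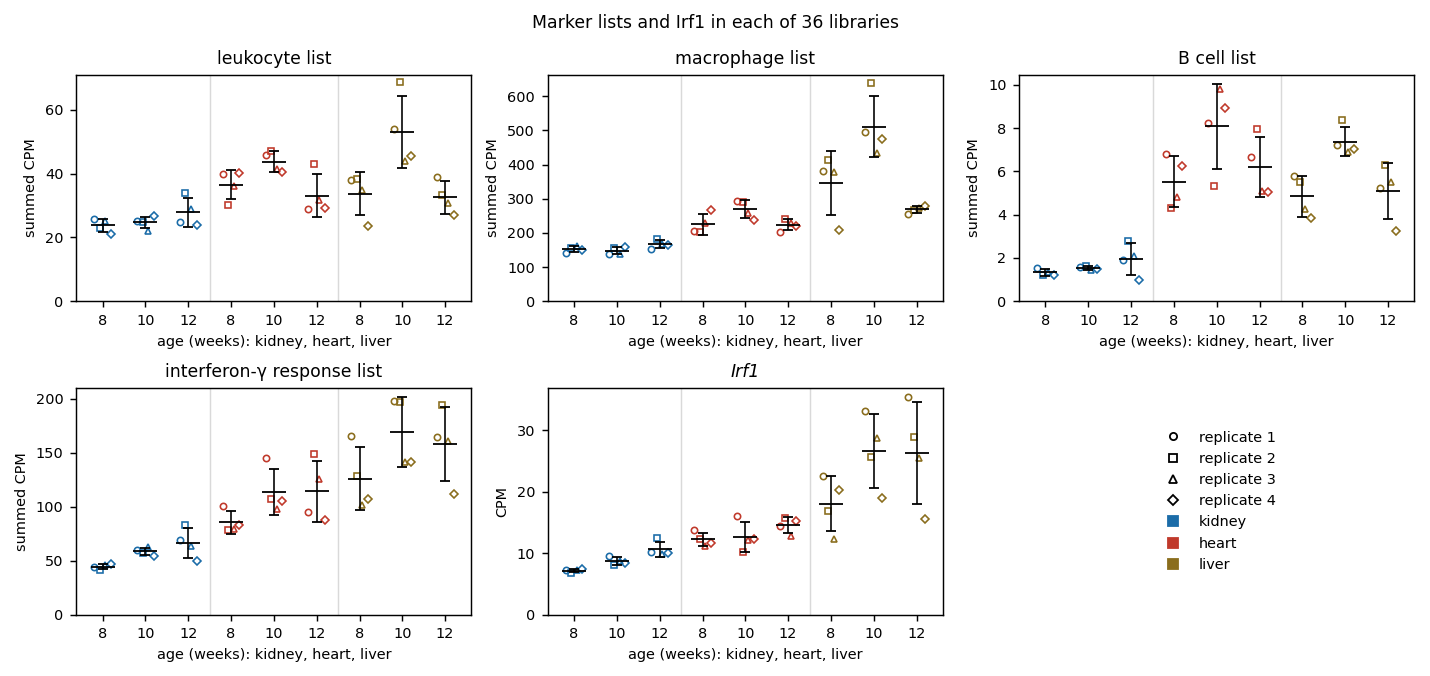
Summed CPM (vertical axis, starting at 0) of genes of leukocytes, macrophages, B cells and the interferon-γ response, and CPM of Irf1, in every library by tissue and age, with the mean ± SD of 4 libraries. The macrophage sum in liver is highest at 10 weeks (433 to 639 CPM), and Irf1 in kidney separates the 3 ages (6.71 to 7.40, 8.12 to 9.54 and 9.89 to 12.5 CPM).

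The age change itself was compared between tissues with an interaction term over all 36 libraries. For kidney against heart from 8 to 12 weeks, Cd74 differed by 0.56 ± 0.25 on the log2 scale (edgeR adjusted p = 0.406), the only one of the 7 with an unadjusted p under 0.05, where 5.42% of all genes had one in this direction. None of the 7 passed, where 0.112% of 19716 genes did. For kidney against liver and heart against liver, 0 of 7 passed (0.304% and 4.16% of all genes did) and 0 of 7 had an unadjusted p under 0.05 (11.2% and 18.4% did), and DESeq2 also passed 0 of 7 in all 3. The median interaction of the 7 was 0.23 for kidney against heart, 0.04 for kidney against liver and -0.30 for heart against liver.

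Between tissues, with 12 libraries each, most class II differences passed edgeR's test. Their sizes were not larger throughout, since the median of kidney against heart (0.50) was like that of kidney at 12 against 8 weeks (0.50) and below that of liver at 10 against 8 weeks (0.73). Over 12 libraries, Cd74 averaged 83.1 ± 18.5 CPM in kidney, 61.5 ± 9.95 CPM in heart and 43.6 ± 15.4 CPM in liver (SD). H2-Ab1 averaged 37.9, 25.9 and 19.7 CPM, and H2-Eb1 33.1, 23.3 and 13.2 CPM. All 7 genes were higher in kidney than in heart, with log2 differences from 0.42 ± 0.10 for Cd74 to 1.99 ± 0.15 for H2-DMb1, and all passed edgeR's test (highest adjusted p = 0.0031, for H2-DMa), as did 47.1% of 19716 genes in this direction. All 7 were also higher in kidney than in liver, from 0.47 ± 0.13 for H2-DMa to 2.05 ± 0.16 for H2-DMb1 (highest adjusted p = 0.00151, edgeR), as were 46.0% of all genes. Heart was higher than liver for 4 of 7, which were the abundant genes H2-Eb1 (0.84 ± 0.11), H2-Aa (0.70 ± 0.11), Cd74 (0.54 ± 0.11) and H2-Ab1 (0.42 ± 0.12), against 42.0% of all genes. The other 3 differed by 0.05 to 0.29. With total counts in place of TMM factors, the median of all genes was 0.67, 0.93 and 0.22 in the 3 comparisons in place of 0.15, 0.16 and 0.00, and the share of all genes called higher was 61.7%, 72.3% and 48.2%. The medians of the 7 genes were then 1.03, 1.99 and 0.69 in place of 0.50, 1.20 and 0.42, all 7 were still higher in kidney, and H2-DMa and Ciita also passed for heart against liver.

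H2-DMb1 set kidney apart most. It stood between 3.77 and 5.52 CPM in 12 kidneys, between 0.441 and 1.86 CPM in 12 hearts and between 0.568 and 2.44 CPM in 12 livers, so that the kidneys overlapped with no other library. Its partner H2-DMa ranged from 2.48 to 6.20, 1.95 to 3.93 and 0.917 to 4.72 CPM and overlapped in all 3 tissues. Mean folds of kidney over heart and over liver were 3.94 and 3.93 for H2-DMb1, 1.35 and 1.33 for H2-DMa, and 2.35 and 2.85 for Ciita.

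Ratios within a library do not depend on the scaling. For each 100 pairs of Cd74, kidneys held 5.67 ± 0.92 pairs of H2-DMb1 (SD, n = 12, range 3.98 to 6.70), hearts 1.87 ± 0.45 (0.867 to 2.34) and livers 2.65 ± 0.54 (1.67 to 3.72). No kidney overlapped with a heart or a liver, and p was 2e-05 in both comparisons, the smallest that a two-sided permutation test with 100000 resamples can give. Liver was above heart (permutation p = 0.001). For Ciita the ratio was 3.71 ± 0.62 in kidney, 2.18 ± 0.92 in heart and 2.57 ± 0.56 in liver, higher in kidney than in heart (p = 0.00018) and liver (p = 0.00014, permutation tests), with overlap. For H2-DMa it was 6.29 ± 1.43 in liver, above 4.43 ± 0.64 in kidney (p = 0.0006) and 4.47 ± 1.04 in heart (p = 0.0016, permutation tests). H2-Eb1 stood at 39.8 ± 1.73 in kidney, 38.0 ± 3.64 in heart and 31.2 ± 4.89 in liver, which was lower than kidney (p = 4e-05) and heart (p = 0.0011, permutation tests). H2-Aa stood at 45.9 ± 2.73 in kidney, 43.7 ± 4.99 in heart and 39.3 ± 3.92 in liver, again lower in liver than in kidney (p = 0.00014) and heart (p = 0.0309, permutation tests; adjusted p = 0.0506). H2-Ab1, its partner in I-A, kept 42.2 to 46.0 pairs in the mean of each tissue, and none of its 3 comparisons had p under 0.05. These p-values are unadjusted values out of 18 comparisons. The ratios of H2-Eb1, H2-DMa, H2-DMb1 and Ciita lack the pairs on bases shared with neighbours, which the counter left out. The tests took libraries of different tissues as independent.

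**Figure D4:**
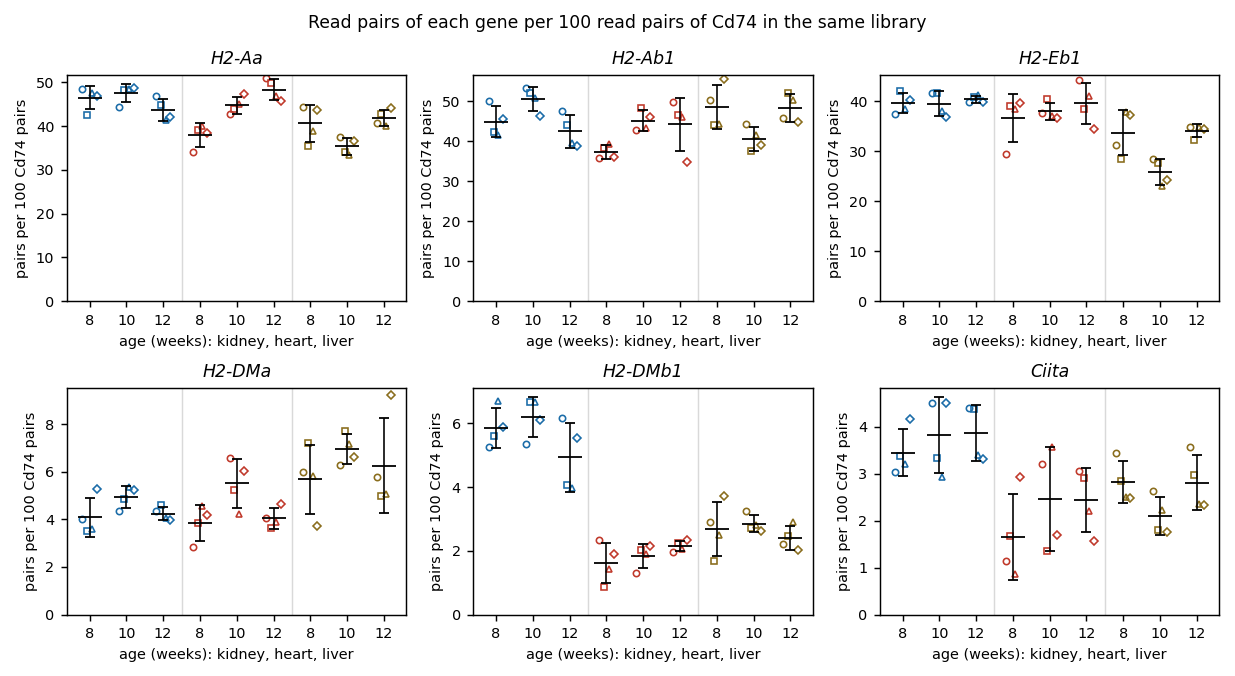
Read pairs of 6 class II genes per 100 read pairs of Cd74 in the same library (vertical axis, starting at 0), by age within kidney (blue), heart (red) and liver (brown), with the mean ± SD of 4 libraries. H2-DMb1 lies between 3.98 and 6.70 in kidneys and at or below 3.72 in all other libraries.

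Ordered by mean CPM over the 9 groups, kidney at 12 weeks came first for all 7 genes. Kidney at 10 and 8 weeks came next for each gene except H2-DMa, where liver at 10 weeks was second with 3.98 ± 0.63 CPM against 4.30 ± 1.29 CPM in kidney at 12 weeks. Liver at 8 weeks came last for all 7. Neighbours in this order mostly did not differ beyond their spread. The libraries of adjacent groups overlapped in all 8 steps for H2-Aa, H2-Ab1, H2-DMa and Ciita, and in 7 of 8 for Cd74, H2-Eb1 and H2-DMb1. The steps without overlap lay between kidney at 12 and at 10 weeks for Cd74 and H2-Eb1, and between kidney at 8 weeks and liver at 10 weeks for H2-DMb1.

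Within a tissue, the 4 genes of the complex varied together from library to library. Pearson's r between log2 CPM of pairs of them was 0.81 to 0.98 over the 12 kidneys, 0.73 to 0.88 over the hearts and 0.89 to 0.97 over the livers. Over all 21 pairs of the 7 genes the median r was 0.80, 0.48 and 0.86. These are descriptions, since the pairs share libraries, scaling and, in the scarce genes, large counting error. The library with the highest value of its group was often the same for all genes. At 12 weeks replicate 2 was highest of 4 for 7 of 7 genes in kidney, 7 of 7 in heart and 6 of 7 in liver, and at 10 weeks in liver replicate 1 was highest for 7 of 7. Averaged over the 7 genes, those libraries lay 0.70, 0.57, 0.52 and 0.88 above the mean of their tissue on the log2 scale. If the 3 libraries of replicate 2 at 12 weeks came from 1 mouse, which the labels do not say, they are not 3 separate observations. In deviations from group means over 13035 genes, this kidney correlated best with the heart (r = 0.060) and the liver (r = 0.065) of its own number. This heart also correlated best with that liver (r = 0.103).

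**Figure D5:**
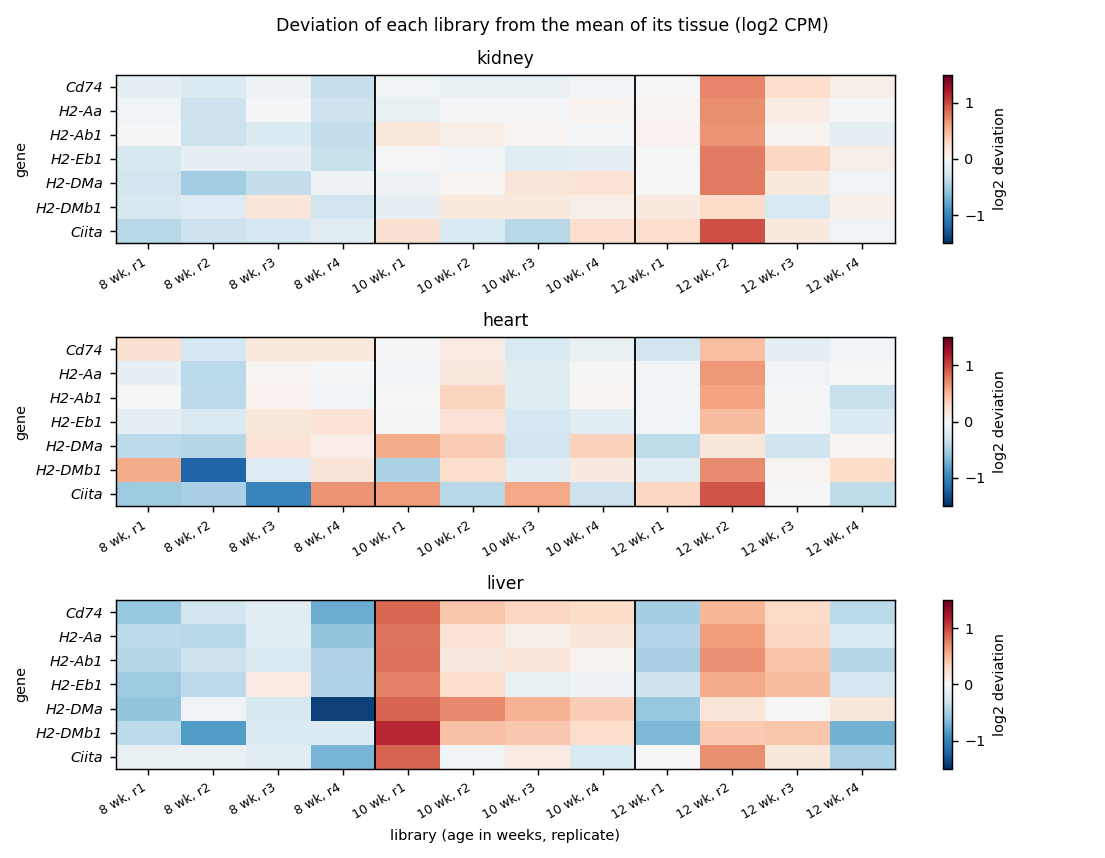
Log2 CPM of each class II gene in each library as deviation from the mean of its tissue (colour scale from -1.5 to 1.5, red above and blue below), with libraries ordered by age in weeks and replicate (r1 to r4) and lines between ages. Replicate 2 at 12 weeks is red for all 7 genes in kidney and heart, and replicate 1 at 10 weeks in liver lies 0.88 above the liver mean on average.

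Beyond the 7, 39 further genes of the pathway were listed. In kidney 35 of them were tested, in heart 34 and in liver 33. With age, 1 passed edgeR's test in any tissue, Irf1, which encodes an activator of Ciita's interferon-γ promoter. In kidney Irf1 stood at 7.30, 6.71, 7.23 and 7.40 CPM at 8 weeks, 9.54, 8.12, 8.80 and 8.36 CPM at 10 weeks, and 10.2, 12.5, 9.89 and 9.99 CPM at 12 weeks, and no 2 ages overlapped. It rose by 0.57 ± 0.09 on the log2 scale from 8 to 12 weeks (edgeR adjusted p = 0.0327). The size was 0.49 to 0.60 over 21 alternatives, but the call was lost in 11 of them, with an adjusted p of up to 0.132. Those were total counts, the fit of 2 ages alone, counts of 1 strand, the replicate block, and leaving out any one kidney of 8 weeks, replicate 4 of 10 weeks, or replicate 1 or 2 of 12 weeks. Its exons share 46.0% of their bases with 3 antisense genes, and 78.9% of its pairs in kidney were left after shared bases were dropped. An unadjusted p under 0.05 was found for 5 of 35 in kidney between 12 and 8 weeks, against 11.7% of all genes in either direction. Besides Irf1 these included Jak2 (0.20 ± 0.07), Prdm1 (0.66 ± 0.25) and H2-DMb2 (0.92 ± 0.33), which did not pass and are named after their values were seen. The number was 11 of 34 in heart between 12 and 8 weeks, against 23.4% of all genes, and 11 of 33 in liver between 10 and 8 weeks, against 14.3%. From 8 to 10 and from 10 to 12 weeks it was 4 and 3 of 34 in heart, against 15.8% and 11.7%. For the same steps it was 4 and 2 of 35 in kidney, where 8.96% and 8.66% of all genes were higher alone. In liver it was 5 of 33 from 8 to 12 weeks (7.37% of all genes were higher alone). From 10 to 12 weeks it was 7 of 33 there (7.77% were lower alone). The pathway counts in these kidney and liver comparisons are of either direction. A share of all genes in 1 direction is too low to set against them, so no excess can be read from these. Between 12 and 8 weeks, the medians of the pathway genes tested were 0.06 in kidney, 0.03 in heart and 0.00 in liver. Those of the 8 genes of antigen processing were -0.01, -0.05 and -0.05, and those of the 7 promoter factors 0.06, 0.00 and -0.02. In liver from 8 to 10 weeks, 25 of 33 were positive with a median of 0.14, and 0 passed.

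Between tissues, the pathway genes passed edgeR's test in both directions. Their shares were near those of all genes, except for kidney against heart, where only 34.3% were higher. For kidney against heart 12 of 35 were higher and 16 lower, where 86.1% of all genes passed in either direction and 47.1% were higher. For kidney against liver 15 were higher and 17 lower (83.1% and 46.0% of all genes), and for heart against liver 16 and 15 (84.2% and 42.0%). This balance depended on the scaling, since with total counts 18 were higher and 10 lower, 23 and 9, and 18 and 12. The protease gene Lgmn was higher in kidney than in heart by 3.03 ± 0.08 and than in liver by 3.23 ± 0.08 on the log2 scale. Its fellow protease Ctsl was lower in heart than in liver by a log2 difference of -2.47 ± 0.09. Among activators of Ciita, Ifngr2, a chain of the interferon-γ receptor, was lower in kidney than in heart (-3.45 ± 0.08) and higher in heart than in liver (2.90 ± 0.08). Spi1, a transcription factor of myeloid cells, was lower in kidney than in liver (-1.77 ± 0.11). Of the promoter factors, Rfx5 was higher in kidney than in heart (0.93 ± 0.10), and Nfyb was lower in kidney (-1.47 ± 0.06) and heart (-1.45 ± 0.06) than in liver. The costimulatory gene Cd80 was lower in kidney than in heart (-2.67 ± 0.21), Lag3, a receptor for class II on T cells, was lower in kidney than in liver (-1.64 ± 0.21), and Cd40 was higher in heart than in liver (2.12 ± 0.17). Of the genes that govern class II turnover, Marchf8 was higher in kidney than in heart (1.88 ± 0.04), Marchf1 in kidney than in liver (0.54 ± 0.13) and Cd83 in heart than in liver (1.48 ± 0.27). H2-DMb2 was higher in kidney than in heart (1.00 ± 0.24) and liver (1.00 ± 0.25), and H2-Ob, a chain of the inhibitor of H2-DM, in heart than in liver (0.49 ± 0.16). With total counts, each of these named differences kept its direction and passed.

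The genes most like the 7 were found by Pearson's r over the 12 libraries of a tissue. It was taken with the mean of the 7 genes' log2 CPM, each first centred and divided by its own SD. They are a description, chosen from 13548 genes in kidney, 12873 in heart and 12575 in liver. In kidney they were Ugcg (r = 0.96), Kcnj2, Sdc4, the immunoproteasome gene Psmb8, Ly6a, Csrp2, the leukocyte genes Slamf7 and Nckap1l, Zfp703 and the interferon-inducible Irgm2 (r = 0.88). In heart they were Tnip2 (r = 0.89), 2610005L07Rik, the peptide transporter gene Tap1, Ptprc, which encodes the leukocyte antigen CD45, Myef2, Cd86, Ifi209, Mpg, Alcam and Pirb (r = 0.78). In liver they were Tmsb10 (r = 0.90), Tmem19, Rassf4, Srpx2, Spp1, Tspan17, Sae1, Endod1, Smarcb1 and Moxd1 (r = 0.83). The 3 lists had no gene in common. Without replicate 2 at 12 weeks, 2 of the 10 in kidney and 5 of the 10 in heart were kept. The liver list also changed when single libraries were left out, as given below. In it, Moxd1 ranged from 0 to 47.4 CPM over the 12 livers, with a mean of 4.66 CPM.

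Among lists of cell types and responses, the sum that followed the mean of the 7 most closely in kidney was that of the interferon-γ response (r = 0.87 over 12 libraries, 0.76 after the mean of each age was removed), then leukocytes (0.86 and 0.83) and B cells (0.80 and 0.74). In heart it was dendritic cells (0.68 and 0.67), a list led by Zbtb46, which endothelial cells also express, and in liver T cells (0.71 and 0.46). After removal of the age means, leukocytes came first in heart with 0.95, and in liver the interferon-γ response with 0.49, ahead of B cells and T cells (0.46 each). These values share libraries and scaling and have 12 points each. Of the marker genes, Gbp2 and Myl2 passed edgeR's test in heart between 12 and 8 weeks, where 4.56% of all genes passed. Between 10 and 8 weeks Gbp2, Lrp2, Cyp2e1, Ttr and Clec10a passed, where 1.06% of all genes did. The share of marker genes that passed was not compared with these. All but Cyp2e1 lost the call without some single library.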

How the data were processed

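RNA was measured in 36 libraries, 4 for each of 3 tissues and 3 ages. Per the study's methods, the authors trimmed paired reads with cutadapt 4.2, checked them with FastQC 0.11.9, aligned them to GRCm39 with STAR 2.7.11b and Ensembl release 113, and deposited the read pair counts per gene that STAR gives. The column that ignores strand was used, in which pairs on bases of 2 genes and pairs with several alignments are left out. The first strand column held 49.8% to 50.2% of stranded pairs. The authors' own filter was kept, so that a gene was tested where at least 1 age had 2 samples above 0 and a mean count of at least 10. Names came from GENCODE M39.

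Counts were fitted with edgeR 4.0.16 (quasi-likelihood, TMM factors, R 4.3.3), by tissue with age as the factor, and over all libraries for tissues and interactions, with Benjamini-Hochberg adjustment over all genes tested and a threshold of 0.05. Alternatives were DESeq2 1.42.0, limma-voom 3.58.1, other factors and filters, fits of 2 ages alone, the replicate block, a single strand and leaving out each library. Ratios to Cd74 were compared by permutation. The scripts were tested on simulated data. The members, gene lists and rules for naming genes were chosen with earlier results of these data known. The genes named beside the 7 were the pathway genes past the threshold, for tissues those with the largest differences in their list, and the 10 most correlated genes in each tissue with a mean of at least 1 CPM. No library was a duplicate of another, with a chi-square per gene of 5.90 to 127.8 over 54 pairs of the same group. The study calls the libraries biological replicates. Results for 1 pathway gene are not reported here.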

Additional observations from a re-analysis of the deposited data

Results flagged for a closer look

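Among 63 sets of 4 values (7 genes in 9 groups), 7 held a class II value far from the other 3 by Dixon's test at the 95% level, where chance gives about 1 in 20. The 7 came from 5 libraries, and since the genes vary together within a library the sets are not independent. H2-Aa stood at 60.6 CPM in replicate 2 of kidney at 12 weeks, against 36.6 to 40.5 CPM in the others, and at 41.4 CPM in replicate 2 of heart at 12 weeks, against 25.4 to 26.6 CPM. In replicate 1 of liver at 10 weeks, H2-Aa stood at 28.2 CPM (others 17.1 to 18.7), H2-Ab1 at 33.4 CPM (others 19.5 to 21.3) and H2-DMb1 at 2.44 CPM (others 1.31 to 1.49). That liver also had the highest sum of the plasma cell list of all, 34.5 CPM. In liver this list was led by Derl3 (mean 4.98 CPM), and 1 of its 4 genes was at 0 in all livers. H2-DMb1 stood at 5.19 CPM in replicate 3 of kidney at 8 weeks, against 3.77 to 3.97 CPM. Ciita was low in replicate 4 of liver at 8 weeks, with 0.611 CPM against 0.914 to 0.962 CPM.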

How the results depend on the processing

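Of 303 alternatives to the counts of class II genes called in 15 comparisons, 297 stayed within 1.5 times the count. The other 6 gave 2 of 7 (DESeq2) and 6 of 7 (no filter) for kidney at 12 against 8 weeks, 1 and 2 (no filter) for kidney at 10 against 8 and 12 against 10 weeks, and 2 (DESeq2) and 4 (no filter) for liver at 10 against 8 weeks. The cause was not tested. Of 1326 alternatives to 67 named differences, 57 lost and 19 gained the call. For heart against liver, 2 reversed, H2-DMb1 to -0.030 without replicate 1 of 8 weeks and H2-DMa to -0.048 without replicate 4 of 8 weeks, neither of which had passed. Leaving out libraries gave up to 0.183 for H2-DMb1 and 0.148 for H2-DMa. The 10 genes most like the 7 were the least stable. With age means removed, 5 were kept in kidney, 5 in heart and 1 in liver, with total counts 5 in liver, and leaving out 1 library kept 2 to 10, 4 to 9 and 1 to 8. With the replicate number as a block, 0 of 7 passed in each age comparison and 7, 7 and 4 between tissues, so no class II call changed, while Irf1 lost its call (adjusted p = 0.132). The block was the number between ages, and age with number between tissues. The labels do not tie libraries to mice, and deviations of same-numbered libraries correlated over 0.1 in 7 of 12 pairs of kidney and liver (0.062 to 0.247), 4 of 12 of kidney and heart and 2 of 12 of heart and liver, so the numbers were not treated as pairs. Still, 12 of 12 kidneys correlated best with the liver of their own number, 10 of 12 with the heart of their own number, and 7 of 12 hearts with the liver of theirs. This is a hint from the data that tissues may share mice. The main tests between tissues and of interactions took libraries as independent, which would not hold if so. Between ages the correlations of same-numbered libraries ranged from -0.262 to 0.191. Depth limits Ciita, H2-DMa and H2-DMb1, which had as few as 10, 15 and 12 pairs in a library.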
